A study of Homo sapiens with 10 samples.

Results

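The loci of 3 genes of the transforming growth factor beta (TGF-β) and activin pathway, INHBA, SMAD3 and SMAD7, were examined for binding of FOS, JUN, JUNB, NFKB1 and STAT3 before and after transformation. Members were all peaks whose summit fell in fixed windows on genome build hg19, chr15:67330000-67510000 for SMAD3, chr18:46420000-46530000 for SMAD7 and chr7:41680000-41800000 for INHBA. The windows held 420 of 879550 peaks. Each summit was widened by 150 bp on both sides and windows that overlapped across the 10 lists were joined into a site, which gave 55 sites at SMAD3, 30 at SMAD7 and 14 at INHBA, 99 of 248897 sites in all.

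The peaks came from chromatin immunoprecipitation followed by sequencing (ChIP-seq) in MCF10A-ER-Src cells, a non-malignant human breast epithelial line that carries the v-Src oncogene as a fusion with the hormone-binding part of the estrogen receptor. All libraries came from this line, so the control cells carried the fusion too. Non-transformed cells received ethanol and transformed cells received 1 µM 4-hydroxy-tamoxifen for 12 h, which switches the fusion on, while the library names inside the lists gave 36 h for the ethanol cells. There was 1 library for each protein and state, and several library names carried a replicate letter whose partners were not analysed here. No difference between the states therefore had a replicate check, no test between them was possible, and every interval given covers counting error only. The labelled cell type could not be checked against marker genes, because peak lists hold no expression values.

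Libraries held 4837474 to 22082403 filtered reads, the NFKB1 library of non-transformed cells being the shallowest and the FOS library of transformed cells the deepest. The lowest peak in every list had a pileup of 4 or 5 extended reads, which in the non-transformed NFKB1 list was 0.827 reads per 1000000 filtered reads (RPM) and in the transformed one 0.413. The corresponding levels of the STAT3 lists were 0.457 and 0.446, so the STAT3 lists reached down to nearly the same level in both states. The absence of a peak says only that a site stayed below the threshold of its library.

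INHBA encodes the subunit that pairs with itself to form activin A, a secreted ligand of the pathway. Ligand-bound receptors phosphorylate SMAD3, which enters the nucleus with SMAD4 and binds DNA together with other factors, AP-1 among them. SMAD7 is an inhibitory member that blocks the receptors and is itself a well-known target of the signal. FOS, JUN and JUNB are subunits of the dimeric factor AP-1, NFKB1 is the p105/p50 subunit of NF-κB, and STAT3 is activated by cytokine receptors and by Src. The next coding genes in the RefSeq gene order (GRCh38.p14) are SMAD6 and AAGAB beside SMAD3, CTIF and DYM beside SMAD7, and SUGCT and GLI3 beside INHBA. No annotation of hg19 was used, so sites were not assigned to a gene, promoter, exon or intron.

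RefSeq (GRCh38.p14) lists 5 start sites for SMAD3, 3 for SMAD7 and 1 for INHBA. The 250 bases before each start were searched on both strands for the letters that AP-1, STAT and NF-κB dimers are known to bind. The AP-1 letters TGANTCA were found in 1 of the 9 promoters, start 3 of SMAD3 in the direction of transcription, and in 6.57% of 35116 promoters. The related letters TGANNTCA, bound by dimers of JUN with ATF proteins, were found in 1 of the 9, that of INHBA, against 10.1% of all. The κB consensus was found in 1, start 1 of SMAD3, against 9.96% of all, and the STAT letters TTCCNGGAA, the SMAD letters GTCTAGAC and the TEAD letters GGAATG were in none of the 9, against 0.968%, 0.182% and 11.9% of all. The promoters with AP-1-type letters are shown, 5′ to 3′ on the gene's strand, with the matched letters in capitals. SMAD3 is read from the plus strand at chr15:67125492-67125741 and INHBA from the minus strand at chr7:41703091-41703340.
SMAD3, start 3: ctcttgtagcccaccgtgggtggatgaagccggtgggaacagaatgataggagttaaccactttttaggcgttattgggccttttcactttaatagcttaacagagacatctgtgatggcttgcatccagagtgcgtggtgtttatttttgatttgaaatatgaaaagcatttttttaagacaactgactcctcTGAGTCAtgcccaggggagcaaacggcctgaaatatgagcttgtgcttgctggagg
INHBA: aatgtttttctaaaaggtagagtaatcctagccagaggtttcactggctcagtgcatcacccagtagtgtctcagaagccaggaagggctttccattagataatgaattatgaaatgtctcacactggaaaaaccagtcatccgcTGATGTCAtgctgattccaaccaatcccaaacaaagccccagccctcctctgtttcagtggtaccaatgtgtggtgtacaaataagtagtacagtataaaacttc
The matched letters begin 56 bases before the SMAD3 start and 105 bases before the INHBA start. These positions are on another build than the peaks and cannot be set beside them, and a match is a description of letters, not of binding.

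SMAD3 had the most sites per 100 kb of its window. Its 55 sites amounted to 30.6 per 100 kb, SMAD7 had 27.3 and INHBA 11.7, beside 9.22 per 100 kb over the mappable genome. The SMAD3 sites were spread over 162.7 kb of the 180 kb window with no gap above 16.7 kb. At INHBA all 14 sites lay within 34.0 kb in the middle of the window, with 42.9 kb and 43.1 kb free of peaks on either side. At SMAD7 the sites spanned 101.7 kb with a largest gap of 14.1 kb. The order of the densities thus depends on the window lengths, and over the spans that held the sites INHBA was the densest. At SMAD3 the peak counts in non-transformed and transformed cells were 28 and 38 for FOS, 25 and 37 for JUN, 20 and 31 for JUNB, 5 and 30 for NFKB1, and 14 and 30 for STAT3. At SMAD7 they were 15 and 28 for FOS, 8 and 14 for JUN, 10 and 8 for JUNB, 0 and 7 for NFKB1, and 3 and 12 for STAT3. The INHBA window held 6 and 9 for FOS, 5 and 11 for JUN, 4 and 8 for JUNB, 1 and 6 for NFKB1, and 2 and 5 for STAT3, in the same order of states. More peaks were called in transformed cells for every protein at every locus except JUNB at SMAD7. The whole lists were longer in transformed cells too. They held 119754 and 164605 peaks for FOS, 81444 and 127335 for JUN, and 75249 and 101014 for JUNB. For NFKB1 they held 13252 and 73822 peaks and for STAT3 42810 and 80265.

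**Figure D1:**
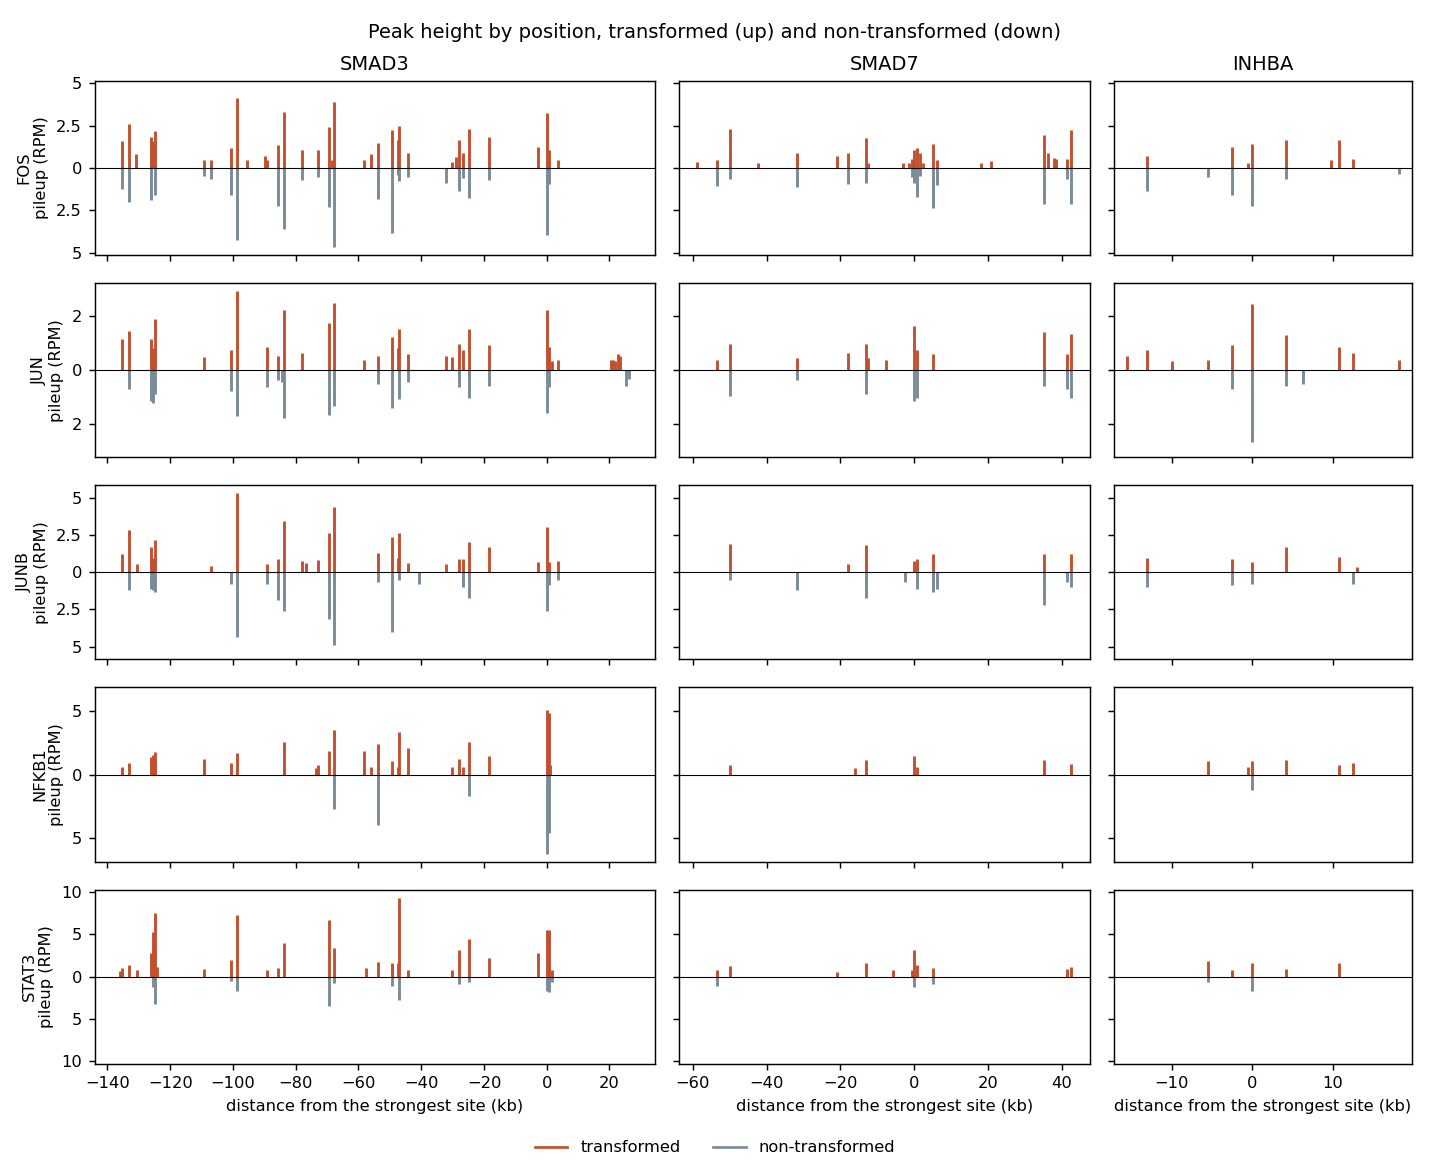
Height of each peak, as pileup in RPM (vertical axes, 1 scale per protein), against its distance in kb from the strongest site of the locus (horizontal axes). Lines pointing up are transformed cells and lines pointing down are non-transformed cells, 1 library each. The STAT3 lines at SMAD3 are mostly longer upwards, while the FOS lines reach similar heights in both states. NFKB1 has 5 sites at SMAD3 before transformation and 28 after, where its whole lists hold 13252 and 73822 peaks.

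Peaks of different proteins coincided at a core set of sites. All 5 proteins had a peak at 4 of 55 SMAD3 sites, 0 of 30 SMAD7 sites and 1 of 14 INHBA sites in non-transformed cells, 5 of 99 in all, against 2.41% of sites genome-wide. In transformed cells the numbers were 19 of 55, 5 of 30 and 3 of 14, 27 of 99 in all, against 14.8% genome-wide. NFKB1 had the shallowest library and the fewest peaks of the non-transformed lists, and its part in these counts was measured by leaving it out. Without NFKB1, an alternative chosen after the data had been seen, FOS, JUN, JUNB and STAT3 shared 10, 0 and 1 sites in non-transformed cells and 21, 6 and 4 in transformed cells at SMAD3, SMAD7 and INHBA. The sums, 11 and 31 of 99, stood against 7.91% and 19.4% of sites genome-wide. The 19 SMAD3 sites became 12 when only peaks above the median significance of the deposited lists were kept, and 3 at a pileup of at least 2 RPM.

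At the other end, 20 SMAD3, 14 SMAD7 and 5 INHBA sites had a peak in 1 list only, 39 of 99, against 38.7% of all sites. Their pileups ran from 5 to 20 reads. At SMAD7, 10 of the 14 had their peak in the FOS list of transformed cells, with 7 to 20 reads. The same list held 5 of 20 such sites at SMAD3 and 1 of 5 at INHBA, against 29.8% of single-list sites genome-wide, and it came from the deepest library. At SMAD3 the last 7 sites, 49 to 55 at chr15:67487934-67493978, were JUN peaks alone, 5 in transformed cells with 6 to 11 reads and 2 in non-transformed cells with 9 and 5 reads. This group was picked out after its values were seen. No peak of the 2 states coincided there.

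No peak of any protein was called before transformation at 21 SMAD3, 15 SMAD7 and 6 INHBA sites, 42 of 99, against 34.6% of all sites. A single protein was called after transformation at 16 of these 21 at SMAD3, 13 of 15 at SMAD7 and 4 of 6 at INHBA, against 71.4% of such sites genome-wide. All 5 proteins were called at 1 of the 42, against 1.26%. That site is described with INHBA.

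**Figure D2:**
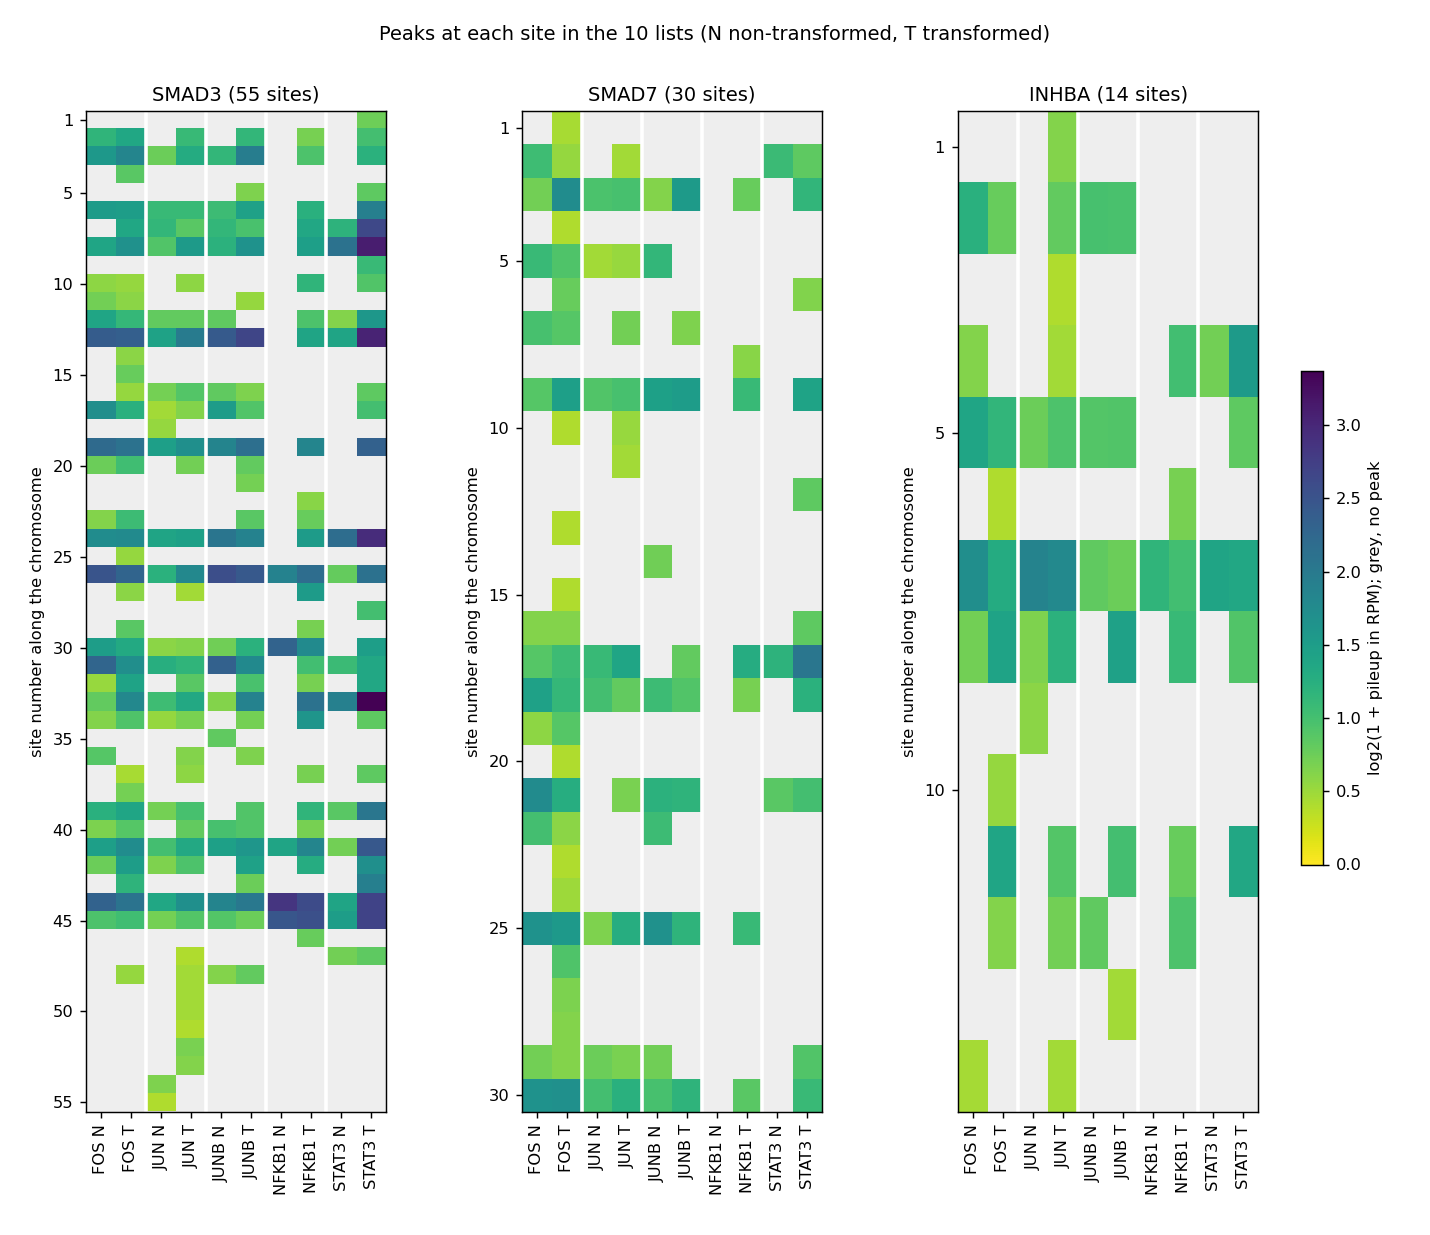
Heat map of the 55 SMAD3, 30 SMAD7 and 14 INHBA sites (rows, in chromosome order) in the 10 lists (columns, N non-transformed and T transformed), coloured by log2(1 + pileup in RPM) with grey for no peak. Rows filled across most columns are the shared core sites, 19, 5 and 3 of which had all 5 proteins in transformed cells, and rows with 1 coloured cell are the 20, 14 and 5 sites seen in 1 list.

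STAT3 peaks were more numerous and mostly higher in transformed cells. Of the 46 sites with a STAT3 peak at the 3 loci, 28 had it only in transformed cells, 17 of 30 at SMAD3, 8 of 11 at SMAD7 and 3 of 5 at INHBA, while 53.0% of STAT3 sites genome-wide did. A STAT3 peak only in non-transformed cells was found at 0 of the 46, against 13.2% genome-wide. Where both states had a STAT3 peak, the transformed level was at least 2 times the other at 10 of 13 SMAD3 sites, 1 of 3 SMAD7 sites and 1 of 2 INHBA sites, against 39.1% genome-wide. It was at most 0.5 times the other at 0 of the 18, against 0.978% genome-wide. All 28 peaks seen only after transformation, at 0.558 to 4.01 RPM, lay above the lowest level of the non-transformed list. This does not show that each would have been called in that library. The weakest, at SMAD7 site 6, would be 6.09 reads there. The lowest non-transformed STAT3 peaks in the windows had 6 reads at SMAD3, 9 at SMAD7 and 7 at INHBA. Reads were extended to 150 bp in the non-transformed and to 119 bp in the transformed STAT3 library, and the longer extension adds to the pileup of the non-transformed cells.

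At SMAD3 the ratio of STAT3 pileup in RPM, transformed over non-transformed, had a median of 3.41 over 13 sites and ran from 1.22 to 6.96, beside a genome-wide median of 1.71. All 13 ratios were above 1, as were 83.2% of STAT3 ratios genome-wide, and 11 of the 13 had a 95% interval above 1, against 39.0%. Whether an interval clears 1 depends on the number of reads as well as on the ratio. The median STAT3 peak in transformed cells was 1.90 RPM at SMAD3 and 1.23 RPM genome-wide, so the 39.0% is not matched for peak height. The STAT3 summits of the 2 states lay 0 to 258 bp apart at these 13 sites, with a median of 24 bp. The corresponding medians were 1.22 over 3 sites at SMAD7 and 1.95 over 2 sites at INHBA, too few sites to describe a locus. On the deposited fold enrichment the SMAD3 median was 2.78. The largest ratio belonged to site 41, chr15:67442419-67443226, where the STAT3 pileup was 7 reads before and 40 after, 6.96 times as high in RPM with an interval of 3.09 to 18.4. FOS at this site had 33 and 51 reads, JUN 16 and 28, JUNB 16 and 32, and NFKB1 8 and 25, and it was among the 4 SMAD3 sites with all 5 proteins in both states. The smallest ratio, 1.22 with an interval of 0.365 to 4.07, was at site 47, chr15:67468790-67469348, where STAT3 had 7 reads in both states and the only other peak was JUN with 6 reads. The STAT3 summits of the 2 states were 258 bp apart there, so the ratio compares separate positions within the joined site.

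The highest STAT3 peak of the 3 loci was at site 33, chr15:67420305-67420668, with 30 reads before and 84 after. It is named outside the fixed rule, after its values were seen, and ranked 596 of 80265 peaks in the transformed list. Its ratio was 3.41 with an interval of 2.23 to 5.36. FOS was also higher there, with 14 and 55 reads, and JUNB with 5 and 42, and it was the 1 site of the 99 at which 3 proteins had intervals above 1. NFKB1 had no peak before and 32 reads after. JUN differed less, with 17 and 28 reads. 

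STAT3 peaks present only in transformed cells at SMAD3 ranged from 6 to 36 reads with a median of 9. The highest was at site 19, chr15:67383619-67383943, with 36 reads or 4.01 RPM, a level that would be 43.9 reads in the non-transformed library. FOS with 67 reads, JUN with 28 and JUNB with 24 were already at this site before transformation. After it FOS had 73, JUN 41 and JUNB 54 reads, and NFKB1 appeared with 25. At 11 of the 17 such SMAD3 sites an AP-1 subunit had a peak in non-transformed cells, at SMAD7 6 of 8 and at INHBA 2 of 3, 19 of 28 in all, against 62.7% genome-wide. The share was thus near the background. An NFKB1 peak in transformed cells accompanied 22 of 30 STAT3 sites at SMAD3, 5 of 11 at SMAD7 and 4 of 5 at INHBA, against 57.8% genome-wide. STAT3 was found without any AP-1 peak at 3 of 30 SMAD3, 1 of 11 SMAD7 and 0 of 5 INHBA sites in transformed cells, against 11.9% genome-wide. The highest at SMAD3, site 9 at chr15:67342958-67343258, was a STAT3 peak alone with 10 reads in transformed cells.

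**Figure D3:**
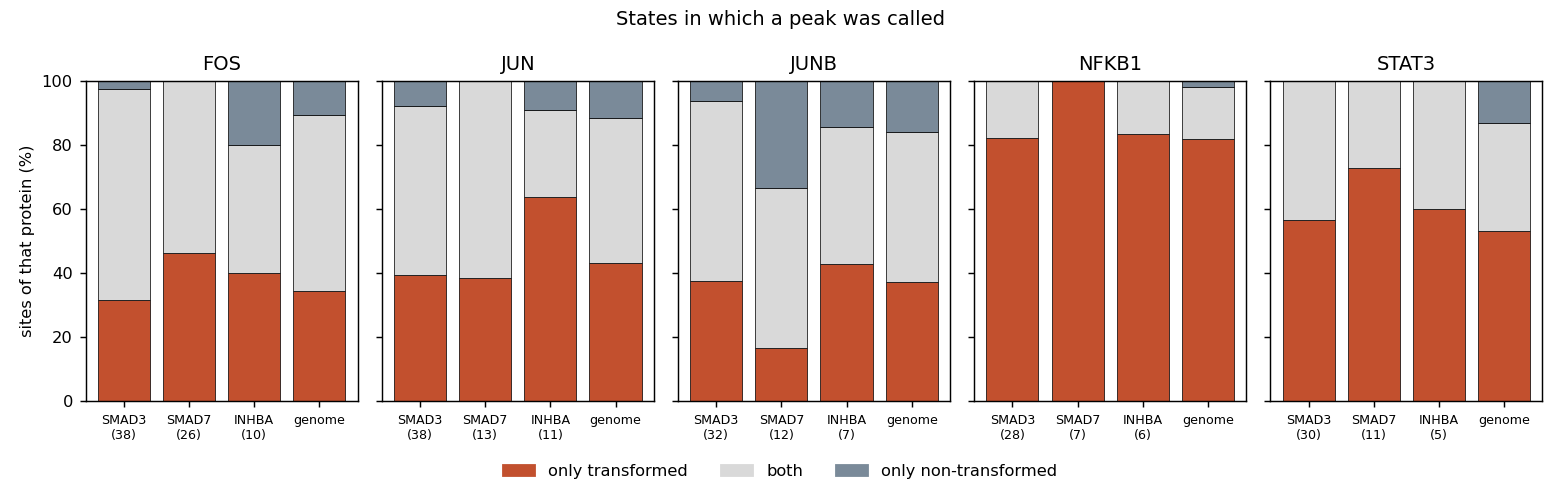
Share of each protein's sites (vertical axis, percent) with a peak only in transformed cells, in both states, or only in non-transformed cells, at SMAD3, SMAD7 and INHBA (number of sites in parentheses) and over all sites of the genome. STAT3 and NFKB1 bars at the 3 loci hold no part seen only in non-transformed cells, beside 13.2% and 1.79% genome-wide.

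The 3 SMAD3 sites with the highest summed level had AP-1 peaks in both states. Most of the 10 lists summed are AP-1 lists, so this largely follows from the ranking. Site 44, chr15:67467287-67467636, had the highest summed level, 35.1 RPM over the 10 lists, and a peak in every list. FOS had 74 reads before and 72 after, JUN 25 and 41, and JUNB 24 and 48. NFKB1 had 30 and 49 reads and STAT3 18 and 49. In RPM, the NFKB1 ratio here was 0.817 with an interval of 0.508 to 1.33 and the STAT3 ratio 3.32 with an interval of 1.90 to 6.05. On the deposited fold enrichment the NFKB1 ratio turned to 1.34 and the STAT3 ratio was 2.72. STAT3 thus had the larger ratio on both scales. The direction for NFKB1 depended on the scale, and fold enrichment keeps part of the difference in library depth. Site 13, chr15:67368542-67368880, summed to 33.2 RPM over 9 lists. Its FOS peak had 79 and 91 reads, JUN 27 and 54, JUNB 40 and 84, and STAT3 18 and 65, while NFKB1 was called only after transformation with 16. The intervals of JUN and STAT3 were above 1 here. Site 26, chr15:67399365-67399730, summed to 31.9 RPM. Its FOS peak had 87 and 86 reads, JUN 21 and 46, JUNB 45 and 69, NFKB1 13 and 34, and STAT3 8 and 30. It held the highest FOS and JUNB pileups of the non-transformed lists at these loci, and the intervals of JUN and STAT3 were above 1.

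NFKB1 peaks were nearly all called in the transformed cells. They were found only there at 23 of 28 SMAD3, 7 of 7 SMAD7 and 5 of 6 INHBA sites, 35 of 41 in all, against 82.0% genome-wide, and only in non-transformed cells at 0 of 41, against 1.79%. Of those 35, 13 had a level below the lowest level of the non-transformed list, against 40.2% genome-wide, and the transformed library held more reads. At the 6 sites with NFKB1 in both states, 0 differed by 2 times or more in either direction, against 9.26% genome-wide at least 2 times higher and 5.92% at most 0.5 times. Their ratios ran from 0.605 to 1.56 and every interval spanned 1. On the deposited fold enrichment 2 of the 6, SMAD3 sites 26 and 41 with ratios of 2.08 and 2.41, were at least 2 times higher, against 33.5% genome-wide on that scale, and the median over the 6 was 1.54 against 0.951 in RPM. Fold enrichment keeps part of the difference in depth, 4837474 against 9674390 filtered reads, so it is not an equal alternative to RPM here. How much of the shift comes from depth was not tested. In RPM every interval spanned 1, so no direction can be given for NFKB1 at these sites. Apart from site 44, the strongest was site 45, chr15:67468095-67468484, with 22 and 47 reads, the next site along the chromosome, named after its values were seen. Both had STAT3 at 49 reads in transformed cells. The count of sites with NFKB1 only in transformed cells depended on the threshold, with 13, 3 and 1 sites above the median significance and 4, 0 and 0 at 2 RPM or more.

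The median ratios of the AP-1 subunits over the 3 loci were nearer 1 than that of STAT3. FOS was called only in transformed cells at 12 of 38 SMAD3, 12 of 26 SMAD7 and 4 of 10 INHBA sites, against 34.5% genome-wide, and only in non-transformed cells at 3 of 74, against 10.7%. At the 43 sites with FOS in both states the level was at least 2 times higher after transformation at 7, against 8.54%, and at most 0.5 times at 2, against 5.99%. The median FOS ratio was 1.14 at SMAD3, 0.898 at SMAD7 and 0.701 over 4 sites at INHBA, beside 0.949 genome-wide. FOS was thus near parity, with single sites well above it, up to 3.90 at SMAD3 and 3.58 at SMAD7.

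JUN was found only in transformed cells at 15 of 38, 5 of 13 and 7 of 11 sites at SMAD3, SMAD7 and INHBA, 27 of 62 in all, against 43.2% genome-wide, and only in non-transformed cells at 4 of 62, against 11.6%. It was at least 2 times higher at 4 of 31 sites with both, against 14.8%, and at most 0.5 times at 0, against 0.807%. The median JUN ratio was 1.39, 1.12 and 1.33, beside 1.29 genome-wide. JUNB was found only in transformed cells at 12 of 32, 2 of 12 and 3 of 7 sites, 17 of 51 in all, against 37.3%, and only in non-transformed cells at 7 of 51, against 15.8%. Of those 7, 4 were at SMAD7. JUNB was at least 2 times higher at 4 of 27 sites with both, against 7.74%, and at most 0.5 times at 1, against 7.02%, with a median ratio of 1.17, 1.01 and 0.971, beside 0.964 genome-wide. On the deposited fold enrichment the JUNB medians were 1.52, 1.37 and 1.28, so the INHBA median turned above 1. On that scale 5 of 27 sites were at least 2 times higher, against 16.8% genome-wide. That scale keeps part of the difference in depth, 9178601 filtered JUNB reads before and 15750765 after.

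A few AP-1 sites had lower levels after transformation. At SMAD3 site 31, chr15:67417668-67418523, named after its values were seen, FOS went from 71 to 50 reads, a ratio of 0.594 with an interval of 0.405 to 0.865, and JUNB from 37 to 38 reads in a deeper library, a ratio of 0.598 with an interval of 0.370 to 0.968. On the deposited fold enrichment these ratios were 0.627 for FOS and 0.799 for JUNB, both nearer 1, and no interval was computed on that scale. STAT3 at the same site had 12 and 14 reads. Of the 125 ratios at the 3 loci, 5 had an interval below 1 and 28 an interval above 1. Intervals below 1 were found at 4 of 43 FOS sites, against 12.6% genome-wide, 0 of 31 JUN sites, against 0.396%, 1 of 27 JUNB sites, against 6.66%, 0 of 6 NFKB1 sites, against 4.67%, and 0 of 18 STAT3 sites, against 0.572%. Intervals above 1 were found at 6 of 43 FOS sites, against 9.60%, 6 of 31 JUN sites, against 14.9%, and 3 of 27 JUNB sites, against 7.05%. They were found at 0 of 6 NFKB1 sites, against 6.41%, and 13 of 18 STAT3 sites, against 39.0%. STAT3 made up 13 of the 28, and was also the protein with the largest such share genome-wide. These genome-wide shares are not matched for peak height, on which the width of an interval depends. Of the STAT3 sites, 11 of 13 at SMAD3, 1 of 3 at SMAD7 and 1 of 2 at INHBA had such an interval.

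**Figure D4:**
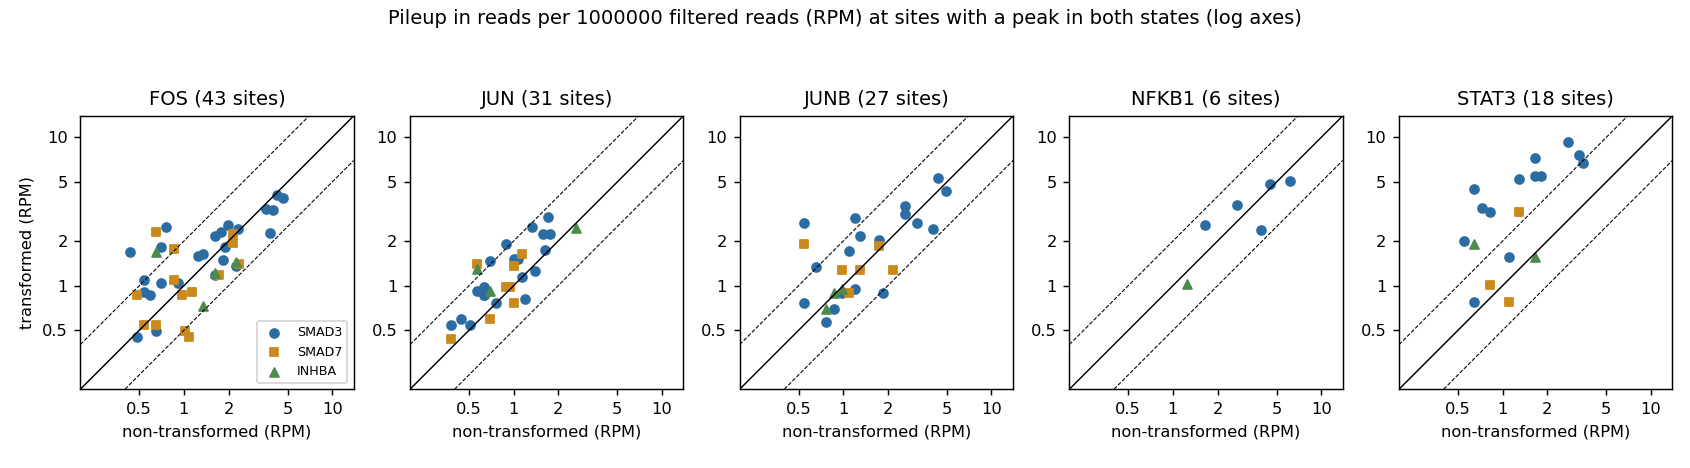
Pileup in RPM in transformed (vertical) against non-transformed cells (horizontal), log axes, at sites with a peak in both states, 1 point per site and 1 library per axis. The solid line marks equal levels and the dashed lines 2 times and 0.5 times. On or above the upper dashed line lie 12 of 18 STAT3 points, 10 of them SMAD3 sites, against 39.1% of sites genome-wide. For FOS it is 7 of 43, against 8.54%, and for JUN 4 of 31, against 14.8%. For JUNB it is 4 of 27, against 7.74%, and for NFKB1 0 of 6, against 9.26%.

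The highest peak at SMAD7 was lower than at SMAD3 in every list with peaks at both loci. The median peak was lower too in these lists, with 2 exceptions. JUNB in transformed cells had a median of 1.27 RPM at SMAD7 and 0.952 at SMAD3. JUN in non-transformed cells had 0.915 and 0.694. No SMAD7 site was in more than 8 lists. The site with the highest summed level, 11.3 RPM, was site 17 at chr18:46481618-46482534, which also had the largest STAT3 ratio of this locus. STAT3 there had 14 reads before and 28 after, a ratio of 2.44 with an interval of 1.24 to 5.01. The STAT3 summits of the 2 states were 109 bp apart in this joined site of 917 bp, so the ratio may compare separate positions. FOS had 16 and 24 reads and JUN 18 and 30, whereas JUNB with 12 and NFKB1 with 14 were called only after transformation. Site 30, chr18:46524315-46524898, had 40 and 49 FOS reads, 16 and 25 JUN reads and 9 and 20 JUNB reads, and NFKB1 with 8 and STAT3 with 10 only after transformation. Site 9, chr18:46468861-46469333, carried the highest STAT3 peak found only in transformed cells, 15 reads. FOS there went from 16 to 39 reads, with an interval above 1, JUN from 14 to 18 and JUNB from 16 to 29, and NFKB1 was called after transformation with 11. These 3 sites had an AP-1 subunit in both states, which the ranking by summed level favours, and NFKB1 only after transformation.

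The smallest STAT3 ratio at SMAD7 was at site 2, chr18:46428399-46428794, with 12 reads before and 7 after, a ratio of 0.711 whose interval, 0.237 to 1.96, spanned 1. FOS at this site had 20 and 10 reads, a ratio of 0.422 with an interval of 0.176 to 0.944. A site without AP-1 was site 12, chr18:46476071-46476371, a STAT3 peak alone with 7 reads in transformed cells. Site 3, chr18:46431854-46432247, named after its values were seen, had 12 and 51 FOS reads and 5 and 30 JUNB reads, ratios of 3.58 and 3.50 with both intervals above 1, beside 15 and 18 JUN reads. NFKB1 with 7 and STAT3 with 11 reads were called there after transformation only.

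At INHBA 1 site had a peak in every list, site 7 at chr7:41738391-41738778, with a summed level of 15.7 RPM. JUN had 42 reads before and 45 after, which ranked 664 of 81444 peaks in the non-transformed list and 4817 of 127335 in the transformed list. FOS had 42 and 32 reads, JUNB 7 and 11, NFKB1 6 and 10, and STAT3 18 and 14. The STAT3 ratio was 0.948 with an interval of 0.436 to 2.02. Unlike at most STAT3 sites of SMAD3, no rise was seen here, but the interval is too wide to exclude one. JUN stood high against JUNB here. The JUN pileup in RPM divided by that of JUNB was 3.47 before and 3.49 after, whereas the other sites of the 3 loci with both subunits reached at most 1.97 before and 2.13 after. Genome-wide the median of this quotient was 0.529 before and 0.770 after, and 0.120% and 0.262% of sites were as high or higher. The site was picked out for this quotient after its values were seen, as the highest of the 3 loci. The JUNB pileups under it were only 7 and 11 reads, and no interval was computed for it. The 2 antibodies differ, so the quotient compares sites with each other and not the amounts of the subunits.

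Site 8, chr7:41742573-41742987, had FOS at 12 and 37 reads and JUN at 9 and 24, both with intervals above 1, and JUNB with 27, NFKB1 with 11 and STAT3 with 8 reads after transformation only. Site 5, chr7:41735733-41736474, carried FOS at 30 and 27, JUN at 11 and 17 and JUNB at 8 and 14 reads, and a STAT3 peak of 7 reads only after transformation. The largest STAT3 ratio at INHBA, 2.96 with an interval of 1.17 to 8.44, was at site 4, chr7:41732972-41733301, with 7 reads before and 17 after. FOS had 10 reads there before and no peak after, while JUN with 7 and NFKB1 with 10 were called only after. Site 11, chr7:41749169-41749560, had no peak of any protein in non-transformed cells. In transformed cells it had 36 FOS, 16 JUN, 16 JUNB, 7 NFKB1 and 14 STAT3 reads, the highest STAT3 peak of INHBA found only after transformation. No INHBA site lacked AP-1. When only peaks above the median significance were kept, site 7 was the only INHBA site with STAT3 in both states and the ratio for the locus became 0.948.

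Within sites the summits of different proteins lay close together. In transformed cells the FOS and JUN summits were a median of 9.5 bp apart over 46 sites of the 3 loci, beside a genome-wide median of 18 bp, and 44 of 46 were within 50 bp, against 85.0% genome-wide. FOS and JUNB summits were 17.5 bp apart over 40 sites, beside 17 bp genome-wide. STAT3 and FOS summits were 25 bp apart over 39 sites, beside 25 bp, and STAT3 and NFKB1 summits 26 bp over 31 sites, beside 31 bp. The summits of JUN and NFKB1 were 14 bp apart over 35 sites, beside 27 bp. In non-transformed cells the FOS and JUN distance was 20 bp over 29 sites, beside 24 bp. These distances compare summits within joined sites and are bounded by how sites were built. The widest separation among the pairs that include STAT3 was 277 bp in transformed cells, between JUNB and STAT3 at INHBA.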

How the data were processed

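ChIP-seq peak lists of 5 proteins in 2 states were used, 1 library each, grouped by the sample labels. Per the file headers, each list comes from 1 library and was made with MACS 2.0.10.20131216, without a control library, from reads of 36 bp at a q-value of 0.05, with a local background over 1000000 bp. The submitters' processing notes name Bowtie and hg19. The deposited pileup is a signal, the extended reads over the summit, not scaled by depth. The deposited significance is −log10 of the p-value and q-value. Fold enrichment, as deposited, is the ratio of pileup over local background after 1 is added to each. At SMAD3 sites 44, 45 and 46, transformed NFKB1 pileups of 49, 47 and 7 had values of 33.2, 31.9 and 5.31. These values are proportional to pileup plus 1. The added 1 leaves part of the difference in depth between libraries in this scale. Extension lengths of 114 to 150 bp differed between libraries and affect the pileup.

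Peaks on chromosomes 1 to 22 and X were used. Summit windows of 150 bp on each side that overlapped by at least 1 bp were joined into sites. The highest pileup of a list at a site was divided by its filtered reads and given per 1000000 (RPM). Ratios have exact conditional (Clopper-Pearson) 95% intervals, which cover counting error only. Genome-wide shares use the same counts over all sites. Reads at 1 site are not replicates, and no test was run. The members and lists were chosen with earlier results of these data known.

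Sites named at each locus are the 3 with the highest summed pileup in RPM, those with the largest and smallest STAT3 ratio, the highest STAT3 site found only in transformed cells, and the highest site without FOS, JUN or JUNB. The planned list of other pathway genes was not run, since no hg19 annotation was used. Promoter sequences are from RefSeq. Python 3.11.15, numpy 2.4.6, pandas 2.3.3 and scipy 1.17.1 were used, and the site code was tested on simulated data, recovering all 20000 sites in 3 settings. Alternatives were other windows, whole peaks, a larger overlap, stricter thresholds and the fold enrichment scale.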

Additional observations from a re-analysis of the deposited data

How the results depend on the processing

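With 1 library per protein and state, leaving out a replicate was impossible. No paired analysis was possible because each group holds 1 library and no result comes from a test. Keeping peaks at or above the median −log10 q-value, 9.41, left 33, 14 and 6 sites at SMAD3, SMAD7 and INHBA, 12, 1 and 0 with all 5 proteins in transformed cells, 13, 3 and 1 with NFKB1 only in transformed cells, and 11 at SMAD3 and 3 at SMAD7 with STAT3 only in transformed cells. The median STAT3 ratio became 2.44 at SMAD7 and, turning below 1, 0.948 at INHBA, where fewer sites entered. Keeping peaks of at least 2 RPM left 20, 5 and 1 sites, 3, 0 and 0 with all 5 proteins, 4, 0 and 0 with NFKB1 only in transformed cells, and 1 at SMAD7 and 0 at INHBA with STAT3 only in transformed cells. The SMAD3 median STAT3 ratio was then 2.30, and SMAD7 and INHBA gave no ratio. On the deposited fold enrichment it was 2.78. On that scale, an alternative chosen after seeing the data, the NFKB1 median over 6 sites turned from 0.951 to 1.54. At SMAD3 site 44 NFKB1 turned from 0.817 to 1.34, and 2 of 6 sites in place of 0 were at least 2 times higher. The JUNB median went from 1.02 to 1.34. Fold enrichment keeps part of the difference in depth, and the NFKB1 and JUNB libraries of transformed cells were the deeper ones. Summit windows of 50 bp, whole peaks and an overlap of at least 150 bp kept every count within 1.5 times its value. Pileups of 4 to 10 reads near the threshold limit what can be said of single weak sites.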
